A study of Homo sapiens with 12 samples.

Results

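The mRNAs of the proteins that write and erase N6-methyladenosine (m6A) were followed through YTHDF2 RNA immunoprecipitation (IP) sequencing of U251-MG cells, a human astrocytoma line that the labels call astrocytes. The set comprised 10 genes, chosen by name: 8 writers (METTL3, METTL14, WTAP, VIRMA, RBM15, RBM15B, ZC3H13 and CBLL1) and 2 erasers (FTO and ALKBH5). By gene name, 9 of the 10 were found among the 36963 genes, and these 9 were also among the 14804 genes tested. The expression of RBM15B was not analysed here. Cells of all groups were kept in medium with 2% serum, either without manganese (control) or with 100 µM manganese chloride, and lysate was split into input RNA and RNA recovered with a YTHDF2 antibody. There were 4 groups of 3 libraries each, input and IP with and without manganese, and input RNA was purified for poly(A) RNA before library preparation. No IP with another antibody is named in the labels, which state neither the length of exposure nor whether the replicates were separate cultures. The p-values therefore measure the spread between these libraries, which may be technical.

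m6A is placed on nascent mRNA in the nucleus by a methyltransferase complex, in which METTL3 holds the catalytic site and METTL14 binds the substrate RNA beside it. WTAP, VIRMA, RBM15, ZC3H13 and CBLL1 form the regulatory part that holds the core in nuclear speckles and brings it to particular RNAs. FTO and ALKBH5 are iron-dependent dioxygenases that remove the methyl group. YTHDF2 is a cytoplasmic reader that binds the mark and brings the mRNA to deadenylation and decay, so the mRNAs of the writers and erasers can themselves be cargo of the reader.

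Estimated gene counts ran from 16683984 to 28425552 per library. Between 83.7% and 87.12% of fragments were aligned, except in control IP 3 with 56.88%. PCGF6 took 34.3% to 41.8% of the counts and 64.2% to 75.9% of the TPM (the length-scaled level) of each library. Among the astrocyte and glioma markers, VIM was at 1170 TPM, GFAP at 429 TPM and SLC1A3 at 13 TPM in control input. ALDH1L1 was at most 0.0927 TPM in any library, and AQP4 was at 0 in every library. Summed over 10 astrocyte and glioma markers, the level was 1920 to 2040 TPM in control input and 1590 to 1680 in manganese input. VIM made up most of these sums, so they do not by themselves show an astrocyte identity. The 3 epithelial markers summed to at most 0.071 TPM in any library. The neuronal markers, of which 5 were found, summed to 17.7 to 29.5 TPM in control input and 20.2 to 24.1 in manganese input.

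The core subunits had few reads, and METTL14 was low in the manganese IP. METTL3 (ENSG00000165819), the catalytic subunit, was at 18.9, 20.4 and 15.3 CPM (read counts scaled to library size with TMM factors) in control input 1 to 3 and at 17.4, 13.6 and 18.0 CPM in manganese input 1 to 3. It was at 22.3, 24.2 and 19.6 CPM in control IP and 11.8, 13.9 and 15.2 CPM in manganese IP. Both inputs overlapped, and the manganese IP libraries lay below those of the control IP. METTL14 (ENSG00000145388), the RNA-binding partner, was at 17.5, 13.6 and 12.7 CPM in control input and 14.2, 12.7 and 12.6 CPM in manganese input. It was at 14.2, 15.6 and 16.4 CPM in control IP and 8.27, 3.54 and 3.12 CPM in manganese IP. The manganese IP was the one low group, with 69 to 201 counts per library.

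Of the regulatory subunits, WTAP, RBM15 and ZC3H13 were higher in the IP than in the input in both treatments. By counts VIRMA was higher in the control IP only, and CBLL1 was low in the manganese IP. WTAP (ENSG00000146457), which anchors the core in nuclear speckles, was at 50.5, 46.7 and 48.8 CPM in control input and 39.4, 39.7 and 42.5 CPM in manganese input. It was at 190.0, 183 and 108 CPM in control IP and 76.0, 75.7 and 55.7 CPM in manganese IP. Every IP library exceeded every input library, and control IP 3 was the lowest of its group. RBM15 (ENSG00000162775), an RNA-binding subunit that directs the complex to its targets, was at 7.57, 12.2 and 14.5 CPM in control input and 15.5, 11.8 and 15.6 CPM in manganese input. It was at 57.7, 40.4 and 50.1 CPM in control IP and 23.7, 26.3 and 28.5 CPM in manganese IP. No IP library of RBM15 overlapped an input library, and the IP groups did not overlap each other. ZC3H13 (ENSG00000123200), which keeps the complex in the nucleus, was at 55.3, 38.6 and 36.6 CPM in control input and 37.9, 34.9 and 43.3 CPM in manganese input. It was at 157, 117 and 79.5 CPM in control IP and 100.1, 106 and 98.4 CPM in manganese IP, and these groups overlapped.

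VIRMA (ENSG00000164944), the scaffold of the regulatory part, was at 76.8, 76.0 and 69.4 CPM in control input and 73.3, 80.5 and 75.6 CPM in manganese input. It was at 118, 107 and 150 CPM in control IP, with control IP 3 the highest, and at 85.1, 75.3 and 91.6 CPM in manganese IP. CBLL1 (ENSG00000105879), a ring-finger protein also known as the ubiquitin ligase HAKAI, had few reads. It had 248, 199 and 162 estimated counts in control input and 103 in each manganese input library. In control IP 1 to 3 it had 12, 46 and 115 counts, and in manganese IP 1 to 3 it had 23, 5 and 0. Both IP groups of CBLL1 spread widely, and control IP 3 lay within the range of the inputs.

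The erasers led the set in the input, and their levels in CPM went in opposite directions with manganese. FTO (ENSG00000140718), the demethylase known for its obesity-linked locus, was at 224, 224 and 206 CPM in control input and 124, 114 and 128 CPM in manganese input. It was at 123, 127 and 205 CPM in control IP and 43.0, 23.5 and 14.4 CPM in manganese IP. Control IP 3 held an FTO level close to the control input, and the manganese IP lay below all other libraries. ALKBH5 (ENSG00000091542), the demethylase of the nuclear speckle, was at 211, 207 and 224 CPM in control input and 320.3, 316 and 277 CPM in manganese input. It was at 201, 213 and 179 CPM in control IP and 460.0, 475 and 438 CPM in manganese IP. In CPM, manganese libraries of ALKBH5 exceeded all control libraries in both fractions. In TPM the inputs overlapped, at 71.3, 70.3 and 79.4 in control input and 79.7, 76.9 and 66.3 in manganese input.

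**Figure D1:**
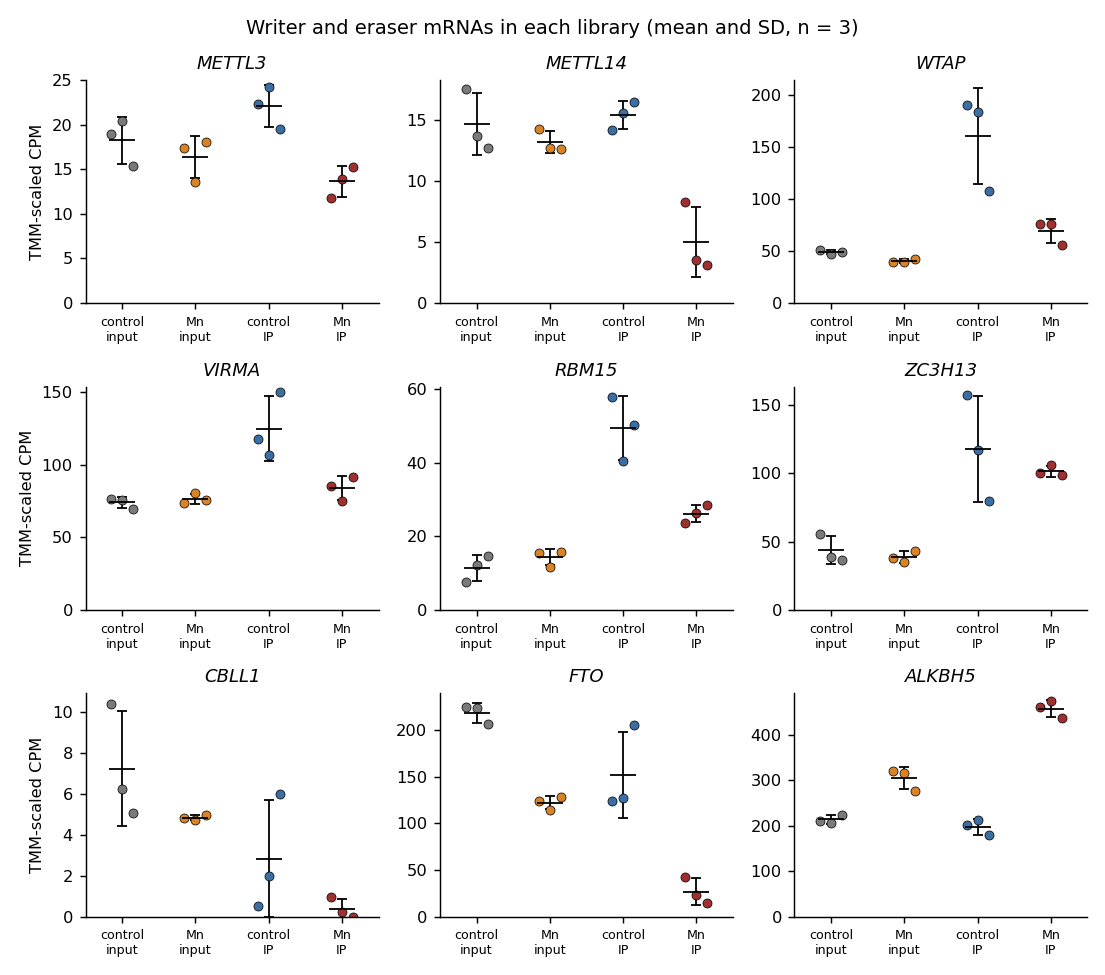
Levels of the 9 members as TMM-scaled CPM (vertical axes from 0, each with its own range) in the 4 groups, with 1 point per library, a bar for the mean and whiskers for the SD (n = 3). By group mean, FTO, METTL14, CBLL1 and METTL3 each had their lowest level in the manganese IP, and ALKBH5 had its highest there. WTAP, RBM15, VIRMA, ZC3H13, METTL3 and METTL14 had their highest group mean in the control IP, where METTL3 and METTL14 overlapped the control input.

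Levels of different genes were set side by side per length, as TPM. In control input FTO stood first at 94.9 ± 5.82 TPM (SD, n = 3), followed by ALKBH5 at 73.7 ± 4.97 TPM, and their libraries did not overlap. VIRMA followed at 19.9 ± 2.71 TPM, and CBLL1, WTAP, METTL14, ZC3H13 and METTL3 lay between 13.8 and 8.70 TPM, each overlapping the next. RBM15 was the lowest at 2.26 ± 0.875 TPM, below METTL3 without overlap. In manganese input ALKBH5 stood first at 74.3 ± 7.08 TPM and FTO second at 37.8 ± 1.03 TPM, again without overlap. In control IP VIRMA led at 74.5 ± 4.58 TPM, while FTO, at 46.3 ± 29.6 TPM, overlapped VIRMA, ALKBH5 and WTAP, its value in control IP 3 (80.5 TPM) being above that of VIRMA in the same library (69.6 TPM). In manganese IP ALKBH5 led at 102.7 ± 7.93 TPM, VIRMA followed at 66.3 ± 6.30 TPM, and the other 7 members were at or below 8.9 TPM. By mean TPM, FTO ranked 1 in control input, 2 in manganese input and 3 in control IP. It ranked 5 in manganese IP, at 5.51 ± 1.64 TPM.

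The ratio of FTO to ALKBH5, in TPM, was 1.42, 1.34 and 1.13 in control input and 0.488, 0.491 and 0.556 in manganese input. It was 0.563, 0.456 and 1.39 in control IP and 0.0693, 0.0413 and 0.0502 in manganese IP. Manganese ratios lay below control ratios in both fractions, without overlap, and control IP 3 carried an input-like ratio. The ratio of METTL14 to METTL3, which form a heterodimer, was 1.05 ± 0.12 in control input, 1.40 ± 0.60 in manganese input, 0.73 ± 0.092 in control IP and 0.49 ± 0.30 in manganese IP (SD, n = 3). By CPM the same ratio was 0.807 in control input and 0.816 in manganese input, so that the inputs, which differ in their mean by TPM, were alike by counts, and it was 0.706 in control IP and 0.387 in manganese IP. Over 4 comparisons, in TPM, of the METTL14 to METTL3 ratio, two-sided exact permutation tests gave p from 0.1 to 0.4 (Benjamini-Hochberg adjusted p = 0.4 for each), where 0.1 is the smallest p that 3 against 3 libraries allow.

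The first comparison asked which of the members were enriched with YTHDF2 in control cells. The mRNAs of 4 regulatory subunits were higher in the control IP than in the input. RBM15 was higher by 2.11 ± 0.25 on the log2 scale (SE, n = 3 per group), WTAP by 1.72 ± 0.21, ZC3H13 by 1.44 ± 0.24 and VIRMA by 0.75 ± 0.16. In fold, the mean of RBM15 in the IP was 4.32 times that in the input, and that of WTAP 3.29 times. Neither core subunit passed, with METTL3 at 0.27 ± 0.21 and METTL14 at 0.08 ± 0.33, nor did CBLL1 at -1.35 ± 0.92. Neither eraser passed, with ALKBH5 at -0.11 ± 0.13 and FTO at -0.52 ± 0.31. By the quasi-likelihood test of edgeR, Benjamini-Hochberg adjusted p over all tested genes was 4.29e-05 for RBM15, 5.2e-05 for WTAP, 0.000422 for ZC3H13 and 0.00254 for VIRMA. For the others it ran from 0.23 for FTO to 0.898 for METTL14. Of the 9 members, 4 were thus higher, against 17.2% of all tested genes, and 0 were lower, against 14.2%. No member was lower at an unadjusted p under 0.05 or by DESeq2, while limma voom called CBLL1 lower (-1.96, adjusted p = 0.0369). The median of the 9 members was 0.27, and that of all tested genes 0.04.

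The VIRMA call was lost with total counts as the scaling (0.46, adjusted p = 0.0698) and in a fit of the control libraries alone (0.62, adjusted p = 0.0646), and ZC3H13 was 0.40 on log2(TPM + 1) (limma, adjusted p = 0.172). Without control IP 3, FTO passed as lower in the IP (-0.80, edgeR adjusted p = 0.048) and CBLL1, which did not pass, was at -2.53. FTO also passed as lower on log2(TPM + 1) (-1.19, limma adjusted p = 0.0159) and log2(TPM + 0.1) (-1.21, 0.0186), and CBLL1 on the former scale (-1.69, 0.0382). With total counts ALKBH5 passed as lower (-0.44, edgeR adjusted p = 0.0202). Over all tested genes, total-count scaling gave 1680 higher and 3036 lower calls (35.6% higher against 54.8%). In bulk RNA, a smaller share of cells with an mRNA and less of it per cell cannot be told apart.

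In manganese-treated cells, the same comparison split the set. ZC3H13 was higher in the IP by 1.39 ± 0.24 on the log2 scale, RBM15 by 0.87 ± 0.25, WTAP by 0.77 ± 0.21 and the eraser ALKBH5 by 0.59 ± 0.14. CBLL1 was lower by -3.58 ± 1.03, FTO by -2.17 ± 0.32 and METTL14 by -1.40 ± 0.34. FTO had 4.51 times and METTL14 2.65 times the mean level in the input that they had in the IP. VIRMA, at 0.14 ± 0.16, and METTL3, at -0.26 ± 0.21, did not pass. The edgeR test gave Benjamini-Hochberg adjusted p = 0.000233 for FTO, 0.000609 for ZC3H13, 0.00461 for ALKBH5 and 0.0063 for METTL14. It was 0.012 for WTAP, 0.0154 for RBM15, 0.0168 for CBLL1, 0.388 for METTL3 and 0.566 for VIRMA. Thus 4 of 9 members were higher, against 14.8% of all genes, and 3 were lower, against 17.6%. The RBM15 call was lost without manganese input 2 (0.79, adjusted p = 0.0763) and the CBLL1 call without manganese IP 2 (-3.29, adjusted p = 0.0706). CBLL1 stood at -5.26 without manganese IP 1 and at -2.96 without manganese IP 3. On log2(TPM + 1) with limma, WTAP (0.39, adjusted p = 0.137), RBM15 (0.60, 0.0843) and ZC3H13 (0.50, 0.097) no longer passed.

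**Figure D2:**
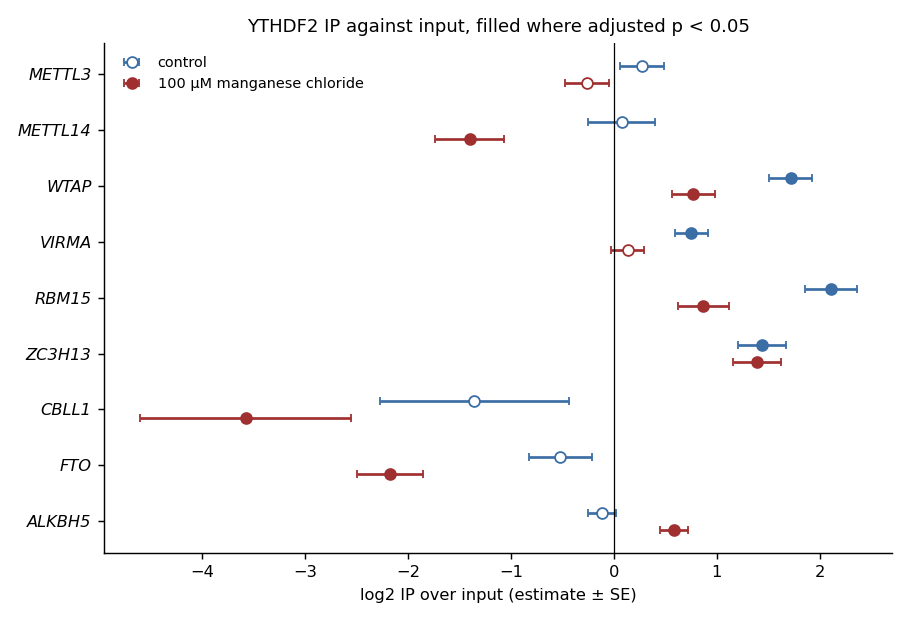
Log2 ratio of YTHDF2 IP to input (horizontal axis, edgeR estimate ± SE) for each member in control cells (blue) and with manganese (red), filled where the adjusted p was below 0.05. The 4 filled control points (WTAP, VIRMA, RBM15, ZC3H13) lie to the right of 0, and with manganese METTL14, CBLL1 and FTO lie to its left.

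Averaged over both treatments, RBM15 (1.49 ± 0.18), ZC3H13 (1.42 ± 0.17), WTAP (1.25 ± 0.15) and VIRMA (0.44 ± 0.11) were higher in the IP. CBLL1 (-2.47 ± 0.68), FTO (-1.35 ± 0.22) and METTL14 (-0.66 ± 0.23) were lower. In edgeR, Benjamini-Hochberg adjusted p was 1.9e-05, 1.87e-05, 2.01e-05 and 0.00581 for the former and 0.0105, 0.000278 and 0.0359 for the latter. These were 4 higher members of 9, against 20.3% of all genes, and 3 lower, against 21.9%. METTL3 stood at 0.0063 ± 0.15 and ALKBH5 at 0.24 ± 0.10 (edgeR, adjusted p = 0.981 and 0.0605). ALKBH5 passed with DESeq2 (0.25, adjusted p = 0.00283) and stood at -0.0005 with total counts (adjusted p = 1). In edgeR, ALKBH5 also passed with RLE scaling factors (0.25, adjusted p = 0.033) and with scaling without PCGF6 (0.26, 0.0326). The same held with a filter of 1 CPM (0.30, 0.0125), a correction for effective length (0.37, 0.0104) or without control IP 3 (0.27, 0.00684). ALKBH5 did not pass in limma voom or without any other single library. VIRMA did not pass with total counts (0.22, adjusted p = 0.185). The METTL14 call was lost without any single library other than control input 3, control IP 3 and manganese IP 1, with values from -0.69 to -0.53 and adjusted p of 0.0575 to 0.0954.

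VIRMA was recovered more strongly per length than by counts. Its TPM was 21.2, 21.7 and 16.8 in control input and 75.3, 78.6 and 69.6 in control IP, and with manganese it was 19.2, 23.0 and 18.7 in the input and 67.1, 59.7 and 72.2 in the IP. IP and input were thus far apart in both treatments, whereas the counts of the manganese groups overlapped. The effective length implied by counts and TPM was 0.381 times as long in the control IP as in the control input, and 0.29 times as long in the manganese IP as in its input. In an edgeR fit with offsets for effective length, VIRMA was higher in the IP by 2.24 ± 0.19 in control cells (Benjamini-Hochberg adjusted p = 6.68e-06) and by 1.99 ± 0.19 with manganese (1.41e-05). The effective length of a gene is set by the mix of transcripts to which its reads were assigned, and single VIRMA transcripts were not analysed here. ZC3H13 went the other way, with an effective length 1.62 times as long in the control IP, and its length-corrected value was 0.77 ± 0.24 in control cells (edgeR, adjusted p = 0.0274) and 0.83 ± 0.24 with manganese (0.0185). METTL14 had ratios of 1.39 and 1.32 and FTO of 1.32 and 1.29. WTAP, ALKBH5, RBM15, CBLL1 and METTL3 lay between 0.901 and 1.11 in both treatments.

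**Figure D3:**
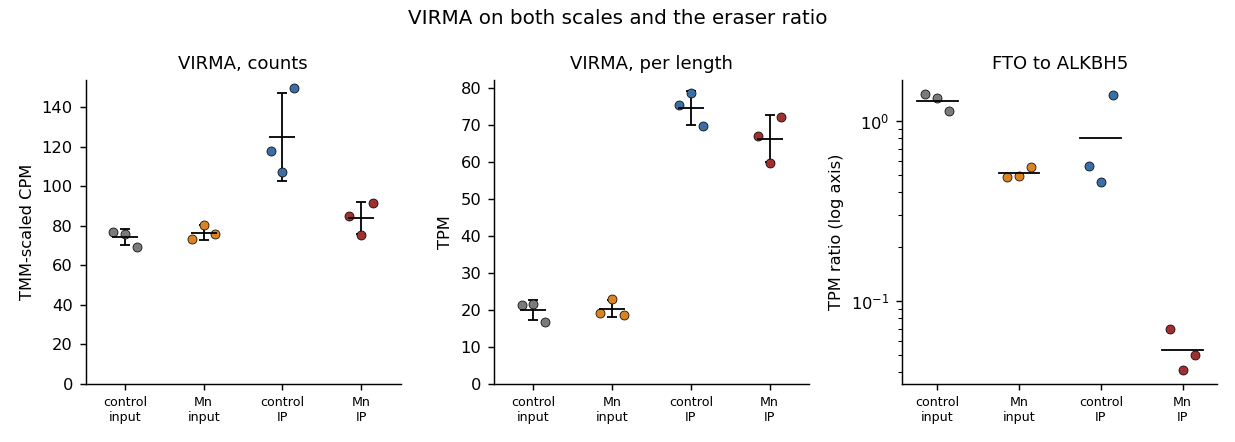
VIRMA in each library as TMM-scaled CPM (left) and as TPM (middle), with mean and SD (n = 3), and the ratio of FTO to ALKBH5 in TPM on a log axis (right, bar for the mean). VIRMA in the manganese IP overlaps the inputs by counts and not by TPM, and the FTO to ALKBH5 ratio is lowest in the manganese IP, at 0.0413 to 0.0693.

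The next comparison asked whether manganese changed the levels of these mRNAs in the input. ALKBH5 rose by 0.51 ± 0.13 on the log2 scale, 1.42 times the control mean. FTO was at -0.84 ± 0.31, with all 3 manganese libraries below all 3 control libraries, and did not pass in the fit of all 12 libraries. No writer passed in that fit, also at an unadjusted p under 0.05, nor in DESeq2 or limma voom with all libraries, but up to 3 writers passed as lower under other settings, given with the erasers' alternatives. WTAP (-0.27 ± 0.21), METTL3 (-0.16 ± 0.21), ZC3H13 (-0.17 ± 0.23), METTL14 (-0.15 ± 0.33), CBLL1 (-0.58 ± 0.90), VIRMA (0.05 ± 0.16) and RBM15 (0.32 ± 0.25) made up the rest. The Benjamini-Hochberg adjusted p of edgeR was 0.0202 for ALKBH5, 0.0949 for FTO and 0.5 to 0.917 for the writers. Thus 1 of 9 members was higher, against 11.3% of all genes, and 0 were lower, against 3.63%. At an unadjusted p under 0.05, FTO was the 1 member lower (0.0176), and it was the 1 member that DESeq2 (-0.91, adjusted p = 0.0225) and limma voom (-0.84, 0.0315) called lower.

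The eraser values and some writer values depended on the fit. In a fit of the 6 input libraries alone FTO was lower by -0.86 ± 0.08 (edgeR, adjusted p = 9.21e-05) and WTAP by -0.29 ± 0.10 (0.0484). In the fit with all groups FTO also passed without control IP 3 (-0.84, 0.0348), manganese IP 1 (-0.91, 0.0267) or manganese IP 3 (-0.91, 0.0322). The ALKBH5 call was lost without control input 1 (0.50, adjusted p = 0.0704), 2 (0.48, 0.101) or 3 (0.55, 0.055) and without manganese input 1 (0.40, 0.14) or 2 (0.41, 0.133). This call was also lost in edgeR with the length correction (0.43, adjusted p = 0.0661) and with no filter (0.51, 0.108). With total counts ALKBH5 was 0.06 (adjusted p = 0.781) and FTO -1.29 (0.0162), and WTAP (-0.72, 0.0118), ZC3H13 (-0.61, 0.0317) and METTL3 (-0.60, 0.0417) passed as lower, but this scaling moved the median of all genes from -0.04 to -0.49 and turned 1678 higher and 537 lower calls into 1122 and 2621. Relative to that median both erasers kept the directions of the TMM fit. On log2(TPM + 1) with limma, ALKBH5 stood at 0.01 (adjusted p = 0.967), FTO at -1.30 (0.0156), METTL3 at -0.62 (0.0204) and WTAP at -0.61 (0.0364), with a median of all genes of -0.28. Over the same contrast, 3 of 9 tested astrocyte and glioma markers were lower and 2 higher, GFAP among the lower (37.8 TPM against 429), and CD68 was higher (12.9 TPM against 2.69). Of the other microglial and macrophage markers AIF1 was at 0, PTPRC and ITGAM were at or below 0.0208 TPM in both inputs and CSF1R, the 1 other tested, did not pass. The part of these markers in the members' values was not tested.

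In the YTHDF2 IP, manganese lowered 7 of the 9 members and raised ALKBH5. FTO fell by 2.49 ± 0.33 on the log2 scale, its control mean being 5.63 times that with manganese. METTL14 fell by 1.62 ± 0.34 and METTL3 by 0.69 ± 0.21, so both core subunits were lower. Among the regulatory subunits, CBLL1 fell by 2.80 ± 1.00, WTAP by 1.21 ± 0.21, RBM15 by 0.92 ± 0.24 and VIRMA by 0.57 ± 0.16, while ZC3H13, at -0.22 ± 0.23, did not pass. ALKBH5 rose by 1.21 ± 0.14, or 2.31 times. In edgeR's quasi-likelihood test, Benjamini-Hochberg adjusted p was 1.49e-05 for ALKBH5, 4.82e-05 for FTO, 0.000408 for WTAP and 0.00169 for METTL14. It was 0.00813 for RBM15, 0.0103 for VIRMA, 0.0175 for METTL3, 0.0377 for CBLL1 and 0.489 for ZC3H13. Against 22.5% of all genes lower and 20.4% higher, 7 members were lower and 1 was higher. The median of the 9 members was -0.92, and that of all tested genes -0.09. In the same contrast 4 of 9 tested astrocyte and glioma markers were lower (GFAP, S100B, SOX9 and SLC1A3) and NES was higher, and of 4 neuronal markers 2 were lower and 1 was higher. CD68 was higher by 4.34 ± 0.30, the 1 of 2 tested microglial and macrophage markers to pass. Summed levels in control and manganese IP were 1620 to 1950 and 1240 to 1510 TPM for the astrocyte and glioma markers and 12.9 to 16.9 and 5.67 to 13.6 TPM for the neuronal ones, and their part in the members' values was not tested.

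These calls differed in how they held. ALKBH5, FTO, METTL14, WTAP and RBM15 passed in each of the alternatives run. With effective length, VIRMA was 0.20 (edgeR, adjusted p = 0.413), so its lower count in the manganese IP was not matched per length, and its call was also lost without manganese IP 2 (-0.53, 0.0541) and in a fit of the IP libraries alone (-0.55, 0.0845). METTL3 was lost without control IP 2 (-0.62, 0.0603) or manganese IP 1 (-0.61, 0.0535), in the fit of the IP libraries alone (-0.66, 0.0724) and with no filter (-0.68, 0.0669). CBLL1 was lost in the fit of the IP libraries alone (-2.83, adjusted p = 0.167) and in limma voom (-3.23, 0.0849), which thus called 6 members lower. It was also lost without control IP 3 (-1.62, adjusted p = 0.186), manganese IP 2 (-2.62, 0.109) or manganese IP 3 (-2.29, 0.0731), and without any of control input 2 or 3 and manganese input 1 to 3 (adjusted p of 0.0507 to 0.0531), and it stood at -4.59 without manganese IP 1 (adjusted p = 0.0108). METTL14 passed at -2.23 without manganese IP 1. ZC3H13 was 0.01 without control IP 1 and -0.43 without control IP 3 and control input 1 (adjusted p = 0.0275).

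**Figure D4:**
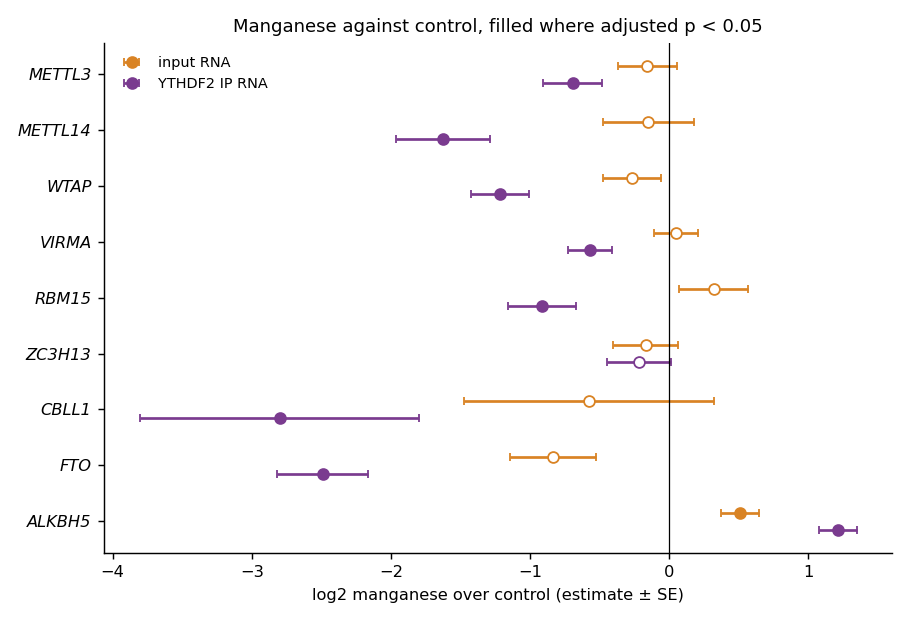
Log2 ratio of manganese to control (horizontal axis, edgeR estimate ± SE) in input RNA (orange) and in YTHDF2 IP RNA (purple), filled where the adjusted p was below 0.05. In the IP 7 members lie to the left of 0 with filled points and ALKBH5 to the right, while in the input only ALKBH5 is filled.

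The change of enrichment, the difference between the log2 IP to input ratios with and without manganese, addresses the loss of enrichment that the series' design text names as its expectation. It was lower for FTO (-1.65 ± 0.44), METTL14 (-1.48 ± 0.47), RBM15 (-1.24 ± 0.35) and WTAP (-0.95 ± 0.29) and higher for ALKBH5 (0.70 ± 0.19). RBM15 and WTAP remained higher in the IP than in the input with manganese, whereas FTO and METTL14 were below the input. ALKBH5 went from -0.11 to 0.59. VIRMA (-0.62 ± 0.22), METTL3 (-0.54 ± 0.30), CBLL1 (-2.22 ± 1.32) and ZC3H13 (-0.05 ± 0.33) did not pass, and CBLL1 ranged from -3.96 without manganese IP 1 to -1.05 without control IP 3. The edgeR test gave Benjamini-Hochberg adjusted p = 0.021 for FTO, 0.0235 for ALKBH5, 0.0269 for RBM15, 0.0408 for WTAP and 0.0463 for METTL14. It was 0.0757 for VIRMA, 0.244 for METTL3, 0.28 for CBLL1 and 0.948 for ZC3H13. Of the 9 members, 4 were lower, against 10.2% of all genes, and 1 was higher, against 6.94%. The median of the members was -0.95 and that of all tested genes -0.17, while total-count scaling turned the split of all calls from 1028 higher and 1503 lower to 1261 and 1009. Of the cell type markers, GFAP, NES and CD68 passed as higher in this contrast, and their part in the members' values was not tested.

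None of these 5 changes passed in every alternative. The ALKBH5 change was lost without control input 2 (0.72, adjusted p = 0.0591) or 3 (0.66, 0.0708) and without a filter on low counts (0.71, 0.0915). The FTO change was lost without control input 3 (-1.61, 0.0555), manganese input 1 (-1.60, 0.06), 2 (-1.66, 0.0537) or 3 (-1.59, 0.0676), or manganese IP 2 (-1.53, 0.0702). RBM15 was lost without any library but control input 1 or 3 and control IP 2 or 3, with values from -1.29 to -1.08 and adjusted p of 0.0536 to 0.0993. WTAP was lost without any library but control IP 3 and manganese IP 1, with values from -0.98 to -0.74 and adjusted p of 0.0521 to 0.0999. METTL14 was lost without any library but the same pair, with values from -1.62 to -1.18 and adjusted p of 0.0534 to 0.12. Scalings and filters also ended calls. With total counts METTL14 (-1.32, adjusted p = 0.0874), WTAP (-0.75, 0.0624), RBM15 (-1.06, 0.0632) and FTO (-1.51, 0.0525) were lost, and with scaling without PCGF6 METTL14 (-1.38, 0.0632), WTAP (-0.83, 0.0514) and RBM15 (-1.12, 0.0501). A filter of 1 CPM ended the calls of METTL14 (-1.35, 0.0584) and WTAP (-0.80, 0.0516), RLE factors that of METTL14 (-1.42, 0.0513), and the length correction those of METTL14 (-1.37, 0.148) and RBM15 (-1.17, 0.089). On log2(TPM + 1) with limma, METTL14 (-0.97, 0.192), FTO (-1.42, 0.0726) and RBM15 (-0.997, 0.0849) were lost, and on log2(TPM + 0.1) these 3 and WTAP (adjusted p of 0.0584 to 0.17). The directions of the 5 changes were the same in every alternative run. Without control IP 3 and control input 1 together, all 5 passed.

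The authors' deposited table gives log2 IP to input ratios, averaged from TPM, with an unadjusted p for the difference between treatments. In the authors' deposited table FTO went from -1.21 to -2.82 (p = 0.0477) and ALKBH5 from -0.35 to 0.47 (p = 0.000691). WTAP went from 1.38 to 0.45 (p = 0.0478) and RBM15 from 2.01 to 0.82 (p = 0.0601) in the authors' deposited table. The same table from the authors' deposited files has METTL14 at -0.67 and -2.09 (p = 0.15), VIRMA at 1.91 and 1.71 (p = 0.337) and ZC3H13 at 0.44 and 0.57 (p = 0.667). For CBLL1 the authors' deposited table holds no manganese mean, because 1 library is at 0.

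Neighbouring genes of the pathway were counted in the same contrasts, where 6.94% of all tested genes rose and 10.2% fell in the change of enrichment. Of 5 tested genes of adenosine methylation outside this complex, PCIF1, which methylates the cap-adjacent adenosine, gained in its IP to input ratio with manganese (2.23 ± 0.37, edgeR adjusted p = 0.00228). So did TRMT112, the partner of METTL5 (1.83 ± 0.42, adjusted p = 0.0111), and 0 of the 5 fell, also at an unadjusted p under 0.05. In the manganese IP against the control IP, the same genes were the 2 of 5 that were higher, against 20.4% of all genes, at 1.24 ± 0.26 for PCIF1 and 1.69 ± 0.31 for TRMT112. Of 9 genes that make or recycle S-adenosylmethionine, the methyl donor, 4 fell in the change of enrichment and 0 rose (also 0 at an unadjusted p under 0.05), among them MAT2A (-0.80 ± 0.22, edgeR adjusted p = 0.0264), a synthetase subunit. MAT2A was higher in the IP in control cells by 2.21 ± 0.16 (adjusted p = 3.75e-06), as was MTR, methionine synthase, by 1.40 ± 0.16 (2.92e-05). AHCY, which hydrolyses S-adenosylhomocysteine (-1.63 ± 0.36, adjusted p = 0.00334), and MTRR, which reactivates methionine synthase (-1.56 ± 0.42, 0.0112), were lower there, so that 3 of the 9 were higher, against 17.2% of all genes, and 2 lower, against 14.2%. Of 7 other genes of the ALKBH family, 1 rose in the change of enrichment (ALKBH2, a DNA repair dioxygenase, 1.77 ± 0.48, adjusted p = 0.0248) and 0 fell (1 at an unadjusted p under 0.05), and in the input 1 fell with manganese (ALKBH8, -1.13 ± 0.35, adjusted p = 0.0453), against 3.63% of all genes. Of 14 m6A reader mRNAs, 2 fell in the change of enrichment, near the share of all genes, and 0 rose (also 0 at an unadjusted p under 0.05). These were YTHDC2 (-1.19 ± 0.24, edgeR adjusted p = 0.00532) and YTHDF2 itself (-0.78 ± 0.22, adjusted p = 0.0269).

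Across the 12 libraries, the genes whose log2 CPM profile was most like that of a member were described by Pearson's r over the same 12 libraries, which share groups and scaling, with no test. The search was limited to tested genes with a mean of at least 5 CPM and a gene symbol that is not a clone name. FTO was closest to MCM6 (r = 0.99) and RACGAP1 (r = 0.983), and METTL14 to NUP107 (r = 0.989) and CUL3 (r = 0.983). ALKBH5 was closest to USP11 (r = 0.989) and EHD2 (r = 0.987), and WTAP to DDX21 (r = 0.991). RBM15 was closest to NXPE3 (r = 0.971), ZC3H13 to PHF20L1 (r = 0.989), VIRMA to PLCE1 (r = 0.957), CBLL1 to EPB41L5 (r = 0.98) and METTL3 to SIX4 (r = 0.917).

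Promoter windows are shown for FTO and METTL14, whose group means were lowest in the manganese IP, and for ALKBH5, whose mean was highest there. These are levels of recovered RNA. In the input, neither FTO (-0.84) nor METTL14 (-0.15) passed with manganese in the fit of all 12 libraries. Whether the letters at the start sites bear on the IP levels was not tested. CBLL1 and METTL3, whose windows are not shown, also had their lowest group mean in the manganese IP. The windows of 300 bases run from 250 before to 50 after the annotated start, 5′ to 3′, from RefSeq on GRCh38.p14. They are chr16:53703906-53704205 on the plus strand for FTO, chr4:118685142-118685441 on the plus strand for METTL14 and chr17:18183578-18183877 on the plus strand for ALKBH5. Capitals mark matches of the 4 motifs searched on both strands, which were CCGGAAG (ETS type), CACGTG (E-box), TGACGTCA (cyclic AMP response element) and ACTACANNNCCC (ZNF143 type).
FTO: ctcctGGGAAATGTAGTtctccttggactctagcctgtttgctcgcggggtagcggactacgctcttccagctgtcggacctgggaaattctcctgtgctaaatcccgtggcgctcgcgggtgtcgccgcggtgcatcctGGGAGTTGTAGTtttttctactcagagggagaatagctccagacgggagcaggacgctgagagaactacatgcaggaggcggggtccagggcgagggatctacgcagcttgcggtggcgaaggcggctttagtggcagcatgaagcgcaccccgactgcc
METTL14: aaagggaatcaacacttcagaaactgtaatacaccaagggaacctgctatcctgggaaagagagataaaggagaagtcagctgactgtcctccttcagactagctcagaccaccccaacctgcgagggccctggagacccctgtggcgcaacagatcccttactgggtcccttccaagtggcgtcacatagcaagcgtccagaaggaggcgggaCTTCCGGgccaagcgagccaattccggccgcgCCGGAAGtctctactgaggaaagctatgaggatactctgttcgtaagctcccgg
ALKBH5: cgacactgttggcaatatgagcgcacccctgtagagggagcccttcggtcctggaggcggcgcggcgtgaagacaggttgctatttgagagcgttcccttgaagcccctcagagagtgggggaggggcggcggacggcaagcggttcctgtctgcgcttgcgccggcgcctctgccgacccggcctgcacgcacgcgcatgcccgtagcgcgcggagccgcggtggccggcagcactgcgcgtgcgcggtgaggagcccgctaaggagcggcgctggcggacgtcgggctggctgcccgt
The FTO window held 2 matches of ACTACANNNCCC, both on the minus strand and starting 245 and 110 bases before the annotated start. This motif was present in 2.14% of all 35116 promoter windows and in no other member window. The METTL14 window held 2 matches of CCGGAAG, 1 on each strand, and CBLL1, METTL3 and ZC3H13 also held this motif, which was in 10.3% of all windows. CACGTG was found in RBM15 and RBM15B, against 7.26% of all windows, and TGACGTCA in no member window, against 1.85%. The ALKBH5 window held none of the 4 motifs, with a GC share of 71.0%, against 60.0% for FTO and 55.7% for METTL14. The median GC share of all promoters was 58.7%. Both WTAP windows also held none of the motifs, at 70.3% and 73.3% GC, although WTAP fell with manganese in the IP (-1.21). These features thus did not set ALKBH5 apart from the members that fell. Windows were found for 9 member genes, RBM15B among them, and that of VIRMA was not analysed here. A match describes letters, not binding.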

How the data were processed

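Per the submitters' processing notes, kallisto was run on hg19; its version and annotation are not given in the sources used here. The authors deposited estimated counts per Ensembl gene as whole numbers, TPM per gene, a percent aligned per library, and a table of log2 ratios of IP to input TPM with unadjusted p-values. Counts carry the authors' assignment of reads to transcripts, whose uncertainty was not carried into any test, and depth ranged from 16683984 to 28425552 counts.

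The estimated counts were fitted with edgeR 4.0.16 (R 4.3.3): filterByExpr (minimum count 10, minimum total 15), TMM factors, 1 mean per group over all 12 libraries, quasi-likelihood F tests of 6 contrasts, and Benjamini-Hochberg adjustment over the 14804 tested genes at 0.05. The script was tested on simulated data. Levels are TMM-scaled CPM or deposited TPM. Replicates are libraries. Alternatives were other scalings, filters, DESeq2 1.42.0, limma 3.58.1, length offsets, omitted libraries and replicate blocks. All 9 members found are named in every contrast; companion lists name at most 3 genes per contrast. Members, lists and motifs were chosen with earlier results of these data known.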

Additional observations from a re-analysis of the deposited data

Results flagged for a closer look

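In 5 of the 9 members the log2 ratio of IP to input differed between control and manganese-treated cells, by the test of that difference itself (edgeR, Benjamini-Hochberg adjusted p below 0.05). Of these, 4 were lower, against 10.2% of all tested genes, and 1 was higher, against 6.94%. None of the 5 calls was kept in every alternative run. The changes were -1.65 for FTO, -1.48 for METTL14, -1.24 for RBM15, -0.95 for WTAP and 0.70 for ALKBH5, with n = 3 libraries in each of the 4 groups. FTO and METTL14 changed from no call in control cells to a level below the input with manganese, WTAP and RBM15 stayed above the input in both, and ALKBH5 changed from no call to a level above the input. What moved these ratios was not tested.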

How the results depend on the processing

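Over 26 alternative settings, 1368 values of members were recomputed: 1166 kept their direction and side of the threshold, 110 lost and 36 gained a call in the same direction, and 56 turned sign. Of the values that were called, 1 turned: VIRMA in manganese against control IP, at 0.20 with the length correction. For every other result the sign turned in values that were not called. With RLE factors, DESeq2 and scaling without PCGF6, VIRMA in the manganese input comparison was -0.028, -0.028 and -0.033 and the change of enrichment of ZC3H13 0.024, 0.024 and 0.059; with a filter of 1 CPM these were -0.048 and 0.095. The change of ZC3H13 was also 0.14 with total counts, 0.099 on log2(TPM + 1), 0.13 on log2(TPM + 0.1) and 0.060 with the length correction. METTL14 enrichment in control cells was -0.22, -0.59, -0.66 and -0.35 under these 4 settings and -0.060 with only the libraries compared. METTL3 in control cells was -0.043, -0.13 and -0.15 with total counts and the 2 TPM scales, METTL3 on average -0.23, -0.26, -0.31, -0.0020 with the length correction and -0.018 with no filter, and RBM15 in manganese input -0.14, -0.069 and -0.077. Total counts also gave -0.0195 for VIRMA with manganese, -0.0005 for ALKBH5 on average and -0.40 for VIRMA in manganese input. METTL14 in manganese input was 0.0995 with the length correction, and without control IP 3 and control input 1 it was 0.0097 and ZC3H13 0.050. The cause was not tested.

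Leaving out 1 library at a time gave values that crossed 0 for VIRMA (-0.063 to 0.073), METTL14 (-0.27 to 0.0005) and ZC3H13 (-0.31 to 0.041) in manganese input, METTL14 enrichment in control cells (-0.020 to 0.22), METTL3 on average (-0.056 to 0.058), ZC3H13 in manganese IP (-0.44 to 0.014) and the change of ZC3H13 (-0.27 to 0.24). Over all genes, the manganese input comparison called 2215, and 3743 with total counts, 3524 on log2(TPM + 1) and 4266 with only the libraries compared. The change of enrichment called 2531, and 1664 and 1454 on the 2 TPM scales, 3998 without control IP 3 and control input 1, and 1455 to 3765 without 1 library. The METTL14 to METTL3 ratio was 0.807 in control and 0.816 in manganese input by CPM, against 1.05 and 1.40 by TPM. A fit of only the libraries compared gives no other value for the average and the change, which use all groups.

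Same-numbered libraries did not deviate together (r of -0.121 to 0.066). With 3 libraries per group, these correlations cannot decide whether input and IP of the same number came from the same lysate. The main fit used no pairing. With the number as a replicate block, CBLL1 in manganese IP lost its call (-2.99, adjusted p = 0.0707), and with input and IP of the same number as a replicate block the changes of WTAP (-0.92, 0.068) and RBM15 (-1.26, 0.0587) lost theirs. Counts limit CBLL1, with 0 to 115 per IP library, and METTL14 in manganese IP. The expression of RBM15B was not analysed here, and without an IP by another antibody, RNA bound to beads or antibody counts towards each enrichment.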
